A study of Saccharomyces cerevisiae with 6 samples.

Results

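Splicing was measured at the introns of 10 budding yeast genes whose proteins act in transport between the endoplasmic reticulum (ER) and the Golgi, within the Golgi or out of it. The genes were chosen by name: SAR1 (YPL218W), SEC14 (YMR079W), SEC17 (YBL050W), SEC27 (YGL137W), BET1 (YIL004C), BOS1 (YLR078C), SFT1 (YKL006C-A), ERD2 (YBL040C), ERV41 (YML067C) and YOS1 (YER074W-A). All of their counted introns were taken, 11 of the 309 introns (298 genes) in the table, since YOS1 has 2 introns. In multiplexed primer extension sequencing (MPE-seq), a pool of primers that anneal beyond the 3′ ends of chosen introns is extended into cDNA, and each read is counted as spliced or unspliced at its intron. There were 3 libraries of the WT genotype (strain EJS1) and 3 of prp2-1 (strain EJS7), replicates A, B and C of each. Both strains grew in YPD at 25 °C to mid-log phase and were then held at 37 °C for 15 minutes, so the WT libraries carry the heat shift too, and 10 µg of RNA went into each library. The labels do not say whether the 3 replicates came from separate cultures, so the p-values below measure the spread between these libraries, which may be technical. Library totals ranged from 1612685 to 2671271 counted reads.

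Proteins leave the ER in vesicles coated by COPII, whose assembly is started by the small GTPase Sar1, and escaped ER residents return in vesicles coated by COPI. Cargo receptors sort proteins into these vesicles, and SNARE proteins on vesicle and target membranes pair to fuse them. The ATPase Prp2 acts late in spliceosome activation, after the U2 snRNP has paired with the branch site and before the first catalytic step, and prp2-1 is a temperature-sensitive allele. The 5′ splice site is read by the U1 and U6 RNAs, and the adenosine of the branch site attacks it in the first step.

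The introns are shown first because their sites are what the spliceosome reads. They were read from the R64 genome by the coding exons of the RefSeq annotation, in which all 11 lie between coding exons, and no other annotated gene overlaps them. Each is written 5′ to 3′ as the transcript's strand, with the first 6 bases, the 7-base branch site match and the last 3 bases in capitals. The introns of SEC17, BOS1 and BET1 are given because they changed most in the full counts (SAR1, whose change is not settled, is described below), those of SEC14 and SEC27 because they stayed the least unspliced in prp2-1, and BET1 and ERV41 also for their sites.
SEC17 (chrII:125155-125270, plus strand): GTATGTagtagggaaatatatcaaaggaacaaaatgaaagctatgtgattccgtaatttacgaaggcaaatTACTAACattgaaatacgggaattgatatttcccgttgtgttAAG
BOS1 (chrXII:286468-286556, minus strand): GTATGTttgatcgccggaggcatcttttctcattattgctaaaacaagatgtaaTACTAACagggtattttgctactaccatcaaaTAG
BET1 (chrIX:348364-348494, minus strand): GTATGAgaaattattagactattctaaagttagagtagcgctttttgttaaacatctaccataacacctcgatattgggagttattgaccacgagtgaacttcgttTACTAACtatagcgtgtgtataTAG
YOS1 intron 1 (chrV:307747-307848, plus strand): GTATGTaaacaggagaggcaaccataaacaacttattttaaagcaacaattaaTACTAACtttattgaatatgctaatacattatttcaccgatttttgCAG
YOS1 intron 2 (chrV:307957-308067, plus strand): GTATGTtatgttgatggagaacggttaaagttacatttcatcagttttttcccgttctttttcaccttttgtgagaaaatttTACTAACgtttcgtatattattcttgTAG
ERV41 (chrXIII:140091-140183, minus strand): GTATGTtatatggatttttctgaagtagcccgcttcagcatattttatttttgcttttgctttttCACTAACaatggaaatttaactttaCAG
SEC14 (chrXIII:424998-425153, plus strand): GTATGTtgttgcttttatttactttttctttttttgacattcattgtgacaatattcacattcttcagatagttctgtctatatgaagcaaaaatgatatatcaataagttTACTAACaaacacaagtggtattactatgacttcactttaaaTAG
SEC27 (chrVII:249887-250086, plus strand): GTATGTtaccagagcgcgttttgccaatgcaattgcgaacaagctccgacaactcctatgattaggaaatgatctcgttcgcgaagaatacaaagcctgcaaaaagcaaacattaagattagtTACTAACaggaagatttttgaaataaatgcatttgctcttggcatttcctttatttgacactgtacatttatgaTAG

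Of the 11 introns, 10 start with GTATGT, which begins 204 of the 279 placed introns (73.1%), and 10 hold an exact TACTAAC on the transcript's strand, found in 230 of the placed introns (82.4%). BET1 starts with GTATGA, as do 8 placed introns (2.87%). The match nearest to TACTAAC in ERV41 is CACTAAC, which was the nearest match in 8 placed introns. The 11 introns are 89 bases (BOS1) to 200 bases (SEC27) long, with a median of 116, against a median of 97 over the 189 placed introns outside ribosomal protein genes. The branch adenosine lies 18 bases from the intron's last base in SAR1 (chrXVI:138726-138864) and 71 bases in SEC27. In 9 of the 11 the intron follows at most 36 coding bases, and in BOS1 it follows the start codon itself, 3 bases. The exceptions are the YOS1 introns, after 94 and 202 of 258 coding bases.

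The comparison of prp2-1 with WT asked how far each intron failed to be removed. The ratio of unspliced to spliced RNA rose in all 11 introns, by 3.05 (SEC27) to 7.73 (SEC17) on the log2 scale from the full counts. All 11 passed the threshold of an adjusted p under 0.05 in edgeR's quasi-likelihood test with Benjamini-Hochberg adjustment, where 93.4% of the 274 introns tested were called higher, so the count itself does not set these genes apart. In all 11 the lowest prp2-1 library exceeded the highest WT library in its unspliced percent, that is, the share of unspliced reads among all reads of the intron, and this held for 92.0% of tested introns. The median log2 change was 5.43 over the 11 introns, 4.64 over all tested introns and 5.40 over the 170 outside ribosomal protein genes. The median unspliced percent went from 5.52% to 70.0% over the 11, and from 10.8% to 90.8% over those 170.

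**Figure D1:**
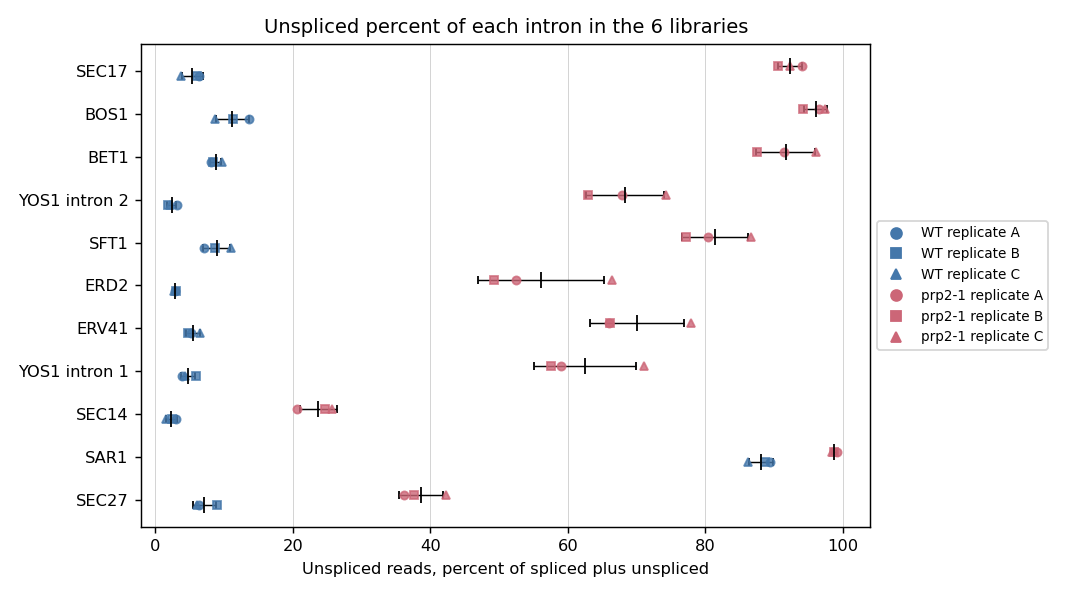
Unspliced reads as a percent of spliced plus unspliced reads (x axis) for each intron (y axis, ordered by the change of the ratio), with 1 symbol per library, blue for WT and red for prp2-1, and bars for the mean and SD of 3 libraries. Leaving out SAR1, the WT means lie between 2.37% and 11.3%, and the prp2-1 means spread from 23.7% (SEC14) to 96.1% (BOS1).

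**Figure D2:**
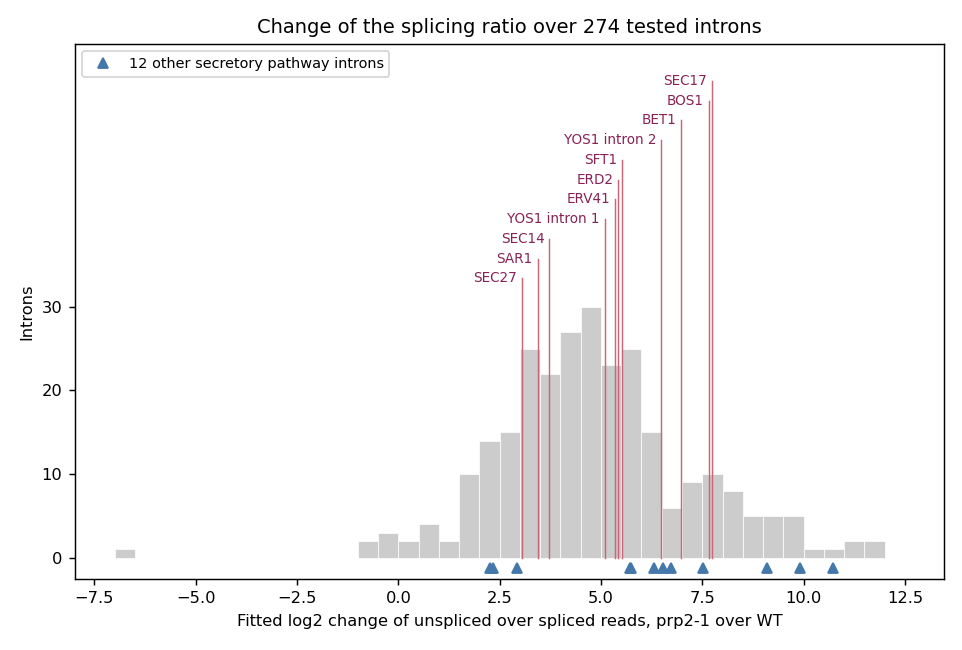
Number of introns (y axis) by fitted log2 change in unspliced over spliced reads, prp2-1 over WT (x axis), for 274 tested introns, with red lines at the 11 introns of ER to Golgi transport genes and triangles at 12 introns of other secretory pathway genes. The red lines run from 3.05 to 7.73, within the range of the other introns.

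Values below are for replicates A, B and C in that order, and mean values are followed by the SD over the 3 libraries of a group. SEC27 encodes beta'-COP, a subunit of the COPI coat. It had 985, 1253 and 1772 spliced reads in WT and 553, 735 and 792 in prp2-1. Unspliced reads were 67, 125 and 115 in WT and 313, 444 and 580 in prp2-1. Spliced reads thus still outnumbered unspliced ones in every prp2-1 library. The unspliced percent was 7.18% ± 1.65 in WT and 38.7% ± 3.19 in prp2-1 (log2 change 3.05, SE 0.34, adjusted p = 7.69e-09, edgeR), the smallest change of the 11.

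SAR1, the GTPase that starts COPII assembly, had 127, 180 and 168 unspliced reads in WT and 806, 865 and 1083 in prp2-1. Its unspliced reads rose by 2.43 on the log2 scale (SE 0.30, adjusted p = 6.02e-15, edgeR), and the groups did not overlap. The full table lists 15, 23 and 27 spliced reads in WT and 7, 11 and 17 in prp2-1, which gives an unspliced percent of 88.1% ± 1.72 in WT and 98.8% ± 0.344 in prp2-1. These spliced counts do not hold across the authors' own random draws from the same libraries. In draws of 800000 reads, SAR1 had 2, 3, 6, 650 and 835 spliced reads in WT replicate A, although the full library lists 15. In WT replicate B, 4 draws held 5 to 10 spliced reads and the other held 687, against 23 in full. Draws that hold more reads than the library they were drawn from occurred for SAR1 in 5 of 90 draws over 3 depths, 4 in WT and 1 in prp2-1 replicate C (57 reads against 17). In those WT draws at 800000 reads the unspliced percent was 5.86% to 6.78% (exact binomial 95% intervals 4.41% to 7.62% and 5.08% to 8.85%), within the range of the WT means of the other 10 introns. In the WT draw at 400000 reads, from replicate A, it was 13.8% (9.04% to 19.8%), above that range. The log2 change of its ratio was 3.44 from the full counts, 3.56 from the first draw and 9.10 from the last draw (adjusted p = 5.51e-08, 5.09e-06 and 1.80e-05, edgeR). The direction held in each, but neither the WT level nor the size of the change of SAR1 is settled by these tables. In none of the 90 draws did another of the 11 introns exceed its full spliced or unspliced count.

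**Figure D3:**
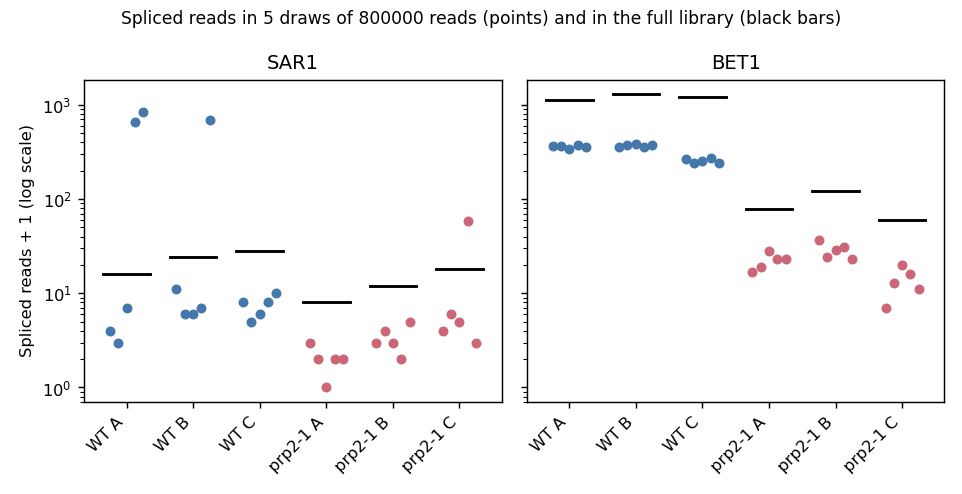
Spliced reads plus 1 on a log axis (y axis) in each of the 6 libraries (x axis) for SAR1 and, as an example without such draws, BET1, with points for 5 draws of 800000 reads and black bars for the full library. In SAR1, 2 draws of WT replicate A, 1 of WT replicate B and 1 of prp2-1 replicate C lie above the bar, whereas all BET1 points lie below.

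Of the cargo receptor genes, ERD2 had a low unspliced percent in WT among the 11 introns, and ERV41 stood at their median. ERD2, which encodes the receptor that returns proteins with an HDEL tail to the ER, had the most reads of the 10 genes. It had 8582, 10894 and 12326 spliced reads in WT and 1533, 2427 and 1650 in prp2-1. Its unspliced reads were 253, 347 and 349 in WT and 1692, 2362 and 3273 in prp2-1. Unspliced reads outnumbered spliced ones in prp2-1 replicates A and C but not in B. The unspliced percent rose from 2.90% ± 0.170 to 56.1% ± 9.14 (log2 change 5.43, SE 0.35, adjusted p = 6.60e-13, edgeR). ERV41, of a membrane protein that cycles between ER and Golgi with Erv46, had 620, 742 and 1005 spliced reads in WT and 142, 189 and 134 in prp2-1. Unspliced ERV41 reads were 34, 37 and 71 in WT and 276, 369 and 472 in prp2-1. Its unspliced percent rose from 5.52% ± 0.964 to 70.0% ± 6.82 (log2 change 5.34, SE 0.39, adjusted p = 4.70e-12, edgeR). The log2 change was similar in the ERV41 intron, with CACTAAC at its branch match, and in that of ERD2, with the exact TACTAAC. The libraries of the 2 introns overlapped in prp2-1 but not in WT, where ERV41 was the higher (4.75% to 6.60% against 2.75% to 3.09%). An effect of the branch match was not tested.

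YOS1 encodes a small membrane protein needed for transport from ER to Golgi, and its 2 introns allow a comparison within 1 transcript. Intron 1 had 2325, 2626 and 3412 spliced reads in WT and 870, 1064 and 861 in prp2-1. Intron 2 had 996, 1390 and 1680 spliced reads in WT and 261, 414 and 279 in prp2-1. Both therefore fell in every prp2-1 library. Unspliced reads of intron 1 were 95, 165 and 157 in WT and 1251, 1441 and 2113 in prp2-1. Those of intron 2 were 32, 27 and 38 in WT and 550, 702 and 803 in prp2-1. The unspliced percent of intron 1 was the higher in WT and that of intron 2 the higher in prp2-1. For intron 1 it rose from 4.75% ± 1.04 to 62.5% ± 7.42 (log2 change 5.10, SE 0.35), and for intron 2 from 2.41% ± 0.628 to 68.3% ± 5.67 (log2 change 6.48, SE 0.38). Both were called (adjusted p = 2.27e-12 and 1.22e-13, edgeR). The log2 ratio, with 0.5 added to each count, of intron 2 minus that of intron 1 was -0.33, -1.67 and -1.01 in WT and 0.55, 0.32 and 0.23 in prp2-1. It was below 0 in all 3 WT libraries and above 0 in all 3 prp2-1 libraries. The group means were -1.0 ± 0.67 and 0.37 ± 0.17, a difference of 1.37 (two-sided p = 0.1 by exact permutation, which no split of 3 and 3 libraries can go below). The 2 introns are 102 and 111 bases long, and both have GTATGT and TACTAAC. The sources used here do not say how reads that cross both introns were counted.

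**Figure D4:**
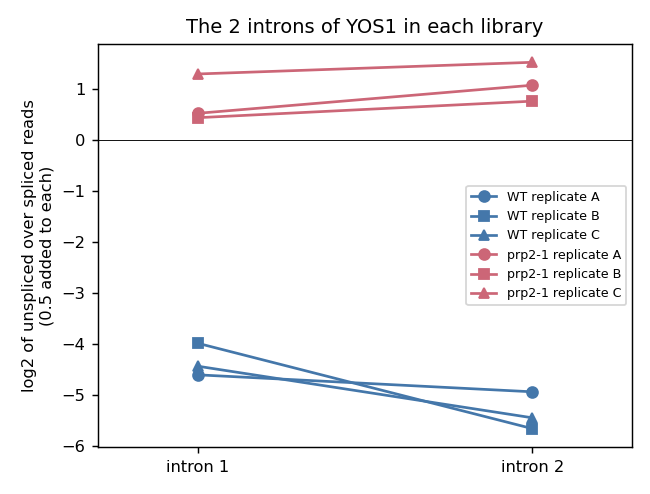
Log2 of unspliced over spliced reads, with 0.5 added to each count (y axis), for intron 1 and intron 2 of YOS1 (x axis), with 1 line per library, blue for WT and red for prp2-1. All 3 WT lines fall from intron 1 to intron 2, and all 3 prp2-1 lines rise.

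The SNARE genes and the gene for their disassembly factor held the 3 largest changes from the full counts, in SEC17, BOS1 and BET1. From the last draw SAR1, at 9.10, exceeded the 8.02 of SEC17. BOS1 and BET1 encode SNAREs of vesicles that travel from ER to Golgi. BOS1 had 399, 475 and 564 spliced reads in WT and 18, 44 and 26 in prp2-1. Its unspliced reads were 63, 61 and 54 in WT and 496, 717 and 997 in prp2-1. Little spliced BOS1 RNA was left in any prp2-1 library. The unspliced percent rose from 11.3% ± 2.45 to 96.1% ± 1.66 (log2 change 7.66, SE 0.43, adjusted p = 4.80e-14, edgeR). BET1 had 1122, 1291 and 1225 spliced reads in WT and 77, 120 and 59 in prp2-1. Unspliced BET1 reads were 100, 119 and 132 in WT and 819, 842 and 1474 in prp2-1. In replicate C of prp2-1 it had both the fewest spliced and the most unspliced reads. The unspliced percent of BET1 rose from 8.78% ± 0.827 to 91.7% ± 4.32 (log2 change 6.98, SE 0.43, adjusted p = 2.75e-13, edgeR). SFT1, a SNARE gene of transport within the Golgi, had 1016, 1196 and 1525 spliced reads in WT and 161, 203 and 189 in prp2-1. Unspliced SFT1 reads were 78, 114 and 189 in WT and 658, 688 and 1218 in prp2-1. Its unspliced percent rose less far, from 8.95% ± 1.96 to 81.4% ± 4.76 (log2 change 5.52, SE 0.37, adjusted p = 1.33e-12, edgeR). The WT libraries of SFT1 and BET1 overlapped, whereas every prp2-1 library of SFT1 lay below every one of BET1.

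SEC17 encodes alpha-SNAP, which brings the ATPase Sec18 to spent SNARE complexes to take them apart. It had the fewest reads of the 10 genes, with 102, 153 and 231 spliced reads in WT and 6, 9 and 10 in prp2-1. Its unspliced reads were 7, 10 and 9 in WT and 95, 87 and 119 in prp2-1. The 2 groups were far apart in both counts. The unspliced percent rose from 5.44% ± 1.47 to 92.3% ± 1.72 (log2 change 7.73, SE 0.54, adjusted p = 2.44e-12, edgeR). With 26 unspliced reads over the WT libraries and 25 spliced reads over the prp2-1 libraries, the summed reads gave a 225-fold higher ratio with an exact conditional 95% interval of 123 to 414, which covers counting error only. The same fold was 203 (155 to 267) in BOS1, 127 (107 to 151) in BET1 and 90.3 (72.6 to 113) in YOS1 intron 2. The interval of SEC17 overlapped those of BOS1 and BET1, and that of BET1 overlapped that of YOS1 intron 2. Those of BOS1 and BET1 did not overlap. The intervals leave out the spread between libraries, and their overlap is not a test, so the order of these introns was not tested.

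SEC14 encodes a transfer protein for phosphatidylinositol and phosphatidylcholine that the Golgi needs to form secretory vesicles. It had 438, 585 and 779 spliced reads in WT and 272, 380 and 341 in prp2-1. Its unspliced reads were 14, 15 and 12 in WT and 71, 125 and 118 in prp2-1. As in SEC27, spliced reads stayed in the majority in every prp2-1 library. The unspliced percent rose from 2.37% ± 0.798 to 23.7% ± 2.66 (log2 change 3.72, SE 0.41, adjusted p = 5.82e-09, edgeR), the lowest level reached among the 11. Its intron is 156 bases long, the longest after SEC27, and holds GTATGT and TACTAAC.

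In WT, neighbouring introns in the order of the unspliced percent overlapped from SEC14 through YOS1 intron 2 to ERD2, and again from YOS1 intron 1 through SEC17, ERV41, SEC27, BET1 and SFT1 to BOS1. In prp2-1 SEC14 lay below SEC27 and SEC27 below ERD2 with no overlap. The next 5, from ERD2 through both YOS1 introns and ERV41 to SFT1, overlapped with their neighbours, SFT1 lay below BET1, BET1 and SEC17 overlapped, and BOS1 lay above SEC17 but overlapped with BET1. Over the 10 introns without SAR1, the unspliced percent in prp2-1 was higher where it was higher in WT (Spearman's rho = 0.67, n = 10 introns that share the same libraries), as over 156 placed introns outside ribosomal protein genes (rho = 0.81). For intron length and the log2 change rho was -0.38 over the 10 and -0.18 over the 156, and these are descriptions across introns, which are not replicates.

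Spliced and unspliced reads were then fitted separately, scaled by the libraries' total counts, so a change of total reads shared by all introns would not show. Unspliced reads rose in all 11 introns, by 2.01 (SEC27) to 4.28 (YOS1 intron 2) on the log2 scale, where 90.9% of tested introns were called higher and 2.19% lower in edgeR. The median was 2.89 over the 11 and 3.02 over all tested introns. Spliced reads fell in all 11 from the full counts, where 57.7% of tested introns were called lower and 6.2% higher. Among the 170 outside ribosomal protein genes, 142 were called lower and 1 higher. The median log2 change of spliced reads was -2.45 over the 11, -0.91 over all tested introns and -2.67 over the 170 outside ribosomal protein genes. The falls were largest in SEC17 (-4.34, SE 0.27), BOS1 (-4.17, SE 0.23) and BET1 (-3.98, SE 0.26), and small in SEC27 (-1.04, SE 0.14) and SEC14 (-0.96, SE 0.14), all with an adjusted p of at most 0.000214 in edgeR. That of SAR1 (-0.99, adjusted p = 0.0384, edgeR) lost its call with DESeq2 (adjusted p = 0.241), with the replicate block (0.0833), from the first draw (0.0689), and without WT replicate A (0.0655), B (0.136) or C (0.0848) or prp2-1 replicate A (0.105) or B (0.0937).

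**Figure D5:**
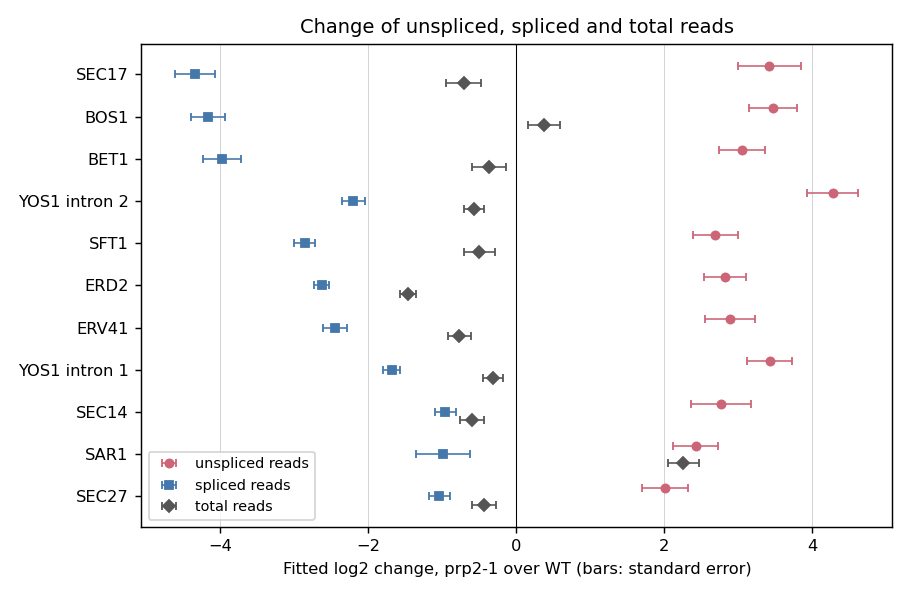
Fitted log2 change, prp2-1 over WT (x axis), of unspliced, spliced and total reads for each intron (y axis), with standard errors as bars. Unspliced reads lie between 2.01 and 4.28 in all 11, spliced reads between -4.34 and -0.96, and total reads below 0 except in BOS1 and SAR1, whose spliced counts differ between the deposited tables.

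Total reads, spliced and unspliced together, were called lower in 5 of the 11 introns and higher in SAR1. Of all tested introns, 23.7% were called lower and 19.7% higher in edgeR. Of the 170 outside ribosomal protein genes, 54 were called lower and 34 higher. ERD2 fell most, from 5394 ± 324 to 1903 ± 232 CPM, reads scaled to a common library total (log2 change -1.46, SE 0.11, adjusted p = 7.69e-06). ERV41 fell from 409 ± 17.6 to 234 ± 29.8 CPM (-0.77, SE 0.16, adjusted p = 0.00412, edgeR). YOS1 intron 2 (-0.57, adjusted p = 0.0100), SEC14 (-0.60, adjusted p = 0.0148) and SEC17 (-0.71, adjusted p = 0.0381) also fell in edgeR. SEC14 no longer passed when WT replicate B or prp2-1 replicate A was left out (adjusted p = 0.0520 in both). SEC17 no longer passed when WT replicate B (0.0836) or C (0.119) or prp2-1 replicate B (0.0878) was left out, with DESeq2 (0.0608) and from the first and last draws (0.210 and 0.0797). Without WT replicate B, 3 introns were called lower, and without prp2-1 replicate C, 9 were. YOS1 intron 1 (-0.31, adjusted p = 0.0896), SEC27 (-0.43, 0.0563), SFT1 (-0.50, 0.0804), BET1 (-0.36, 0.227) and BOS1 (0.38, 0.180) did not pass in edgeR. The rise of SAR1 (2.26, SE 0.21, adjusted p = 1.71e-05, edgeR) rests on the spliced counts described above, and from the last draw its change was -1.245 (adjusted p = 0.244). Relative to the 13 introns that were over 98% unspliced in WT, a scaling that moved the median change of total reads over all introns by -0.29, 9 of the 11 were called lower. Those 13 were chosen by their WT level in these libraries. Their own total reads were not stable, with log2 changes from -6.47 (YDR535C) to 2.30 (COX5B) in the main fit.

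Other genes of the secretory pathway, from a list of 14 with 12 introns tested, gave shares near those of all introns in the ratio and in unspliced reads. The ratio rose in all 12, with a median log2 change of 6.41, and was called higher in 11, where 93.4% of tested introns were called higher. NYV1, a vacuolar SNARE gene, changed most, from 9.94% ± 0.505 to 99.5% ± 0.444 (log2 change 10.73, adjusted p = 5.88e-15, edgeR). SNC1, a SNARE gene of secretory vesicles, and YOP1, of a protein that shapes ER tubules, were in the middle (6.52 and 6.30). OST5, of the oligosaccharyltransferase of the ER, changed from 3.31% ± 0.321 to 20.7% ± 2.23, a range like that of SEC14. ARF2, which encodes a GTPase of COPI budding, did not pass (2.27, adjusted p = 0.0740, edgeR), with an SD of 41.2 percentage points in WT. Unspliced reads rose in all 12, where 90.9% of tested introns were called higher. Spliced reads were called lower in 10, against 57.7% of all tested introns and 142 of the 170 outside ribosomal protein genes. VPS29 and SPT14 had too few reads to test. HAC1, whose intron the spliceosome does not remove, had 0 spliced reads in both groups, and its total reads did not pass the test (log2 change 0.21, adjusted p = 0.412, edgeR).

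Among the libraries, prp2-1 replicate C had the highest unspliced percent in 9 of the 11 introns, and its median over all tested introns was 54.5%, against 45.2% and 42.7% in A and B. Without it all 11 introns were still called higher, with log2 changes from 2.94 to 7.75. Reads of HMRA1, the gene of the a1 mating-type protein, summed to 2593 to 3040 CPM in the WT libraries and 0.374 to 3.25 in prp2-1. Over 7 introns of meiotic genes the sum was 51.5 to 54.4 CPM in WT and 170 to 325 in prp2-1. REC114 had 32 of these reads in WT and 1136 in prp2-1, HOP2 intron 2 had 198 and 214, and the 7 include HOP2 intron 1 and MEI4 at 0 reads in some libraries. These levels and the prp2-1 genotype cannot be told apart in these libraries. PRP2 has no counted intron, so the genotype was not checked from its reads.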

How the data were processed

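The authors deposited raw counts of spliced and unspliced reads per intron and library, and the same counts from 5 random draws at each of 3 depths (200000, 400000 and 800000 reads). The draws' table heads depth and draw the other way round, as judged from its totals. Per the submitters' processing notes, fastp 0.19.5, HISAT2 2.2.1, SAMtools and genome build R64 were used. The sources used here do not say how a read was assigned or whether duplicates were removed, so intervals cover counting error only.

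Introns with a mean of at least 10 reads over the 6 libraries were tested (274 of 309). The log2 change of the ratio is the interaction of read type with genotype in edgeR 4.0.16 (R 4.3.3; quasi-likelihood test) with terms for library and read type. Total, unspliced and spliced reads were fitted by genotype with library totals and TMM factors of total reads. P-values were adjusted by Benjamini-Hochberg over all 274. Standard errors were derived from the F statistic. The fits were run on simulated counts with a fixed dispersion and with ratio changes below the largest fitted here. That check of the code does not show how the fits behave on these data. Alternatives were DESeq2 1.42.0, limma 3.58.1 (pseudocount 0.5), other filters and scalings, a replicate block, the drawn counts and leaving out each library. Intron positions came from gaps between coding exons, for 279 introns. The branch match is the 7-base run with fewest differences from TACTAAC, with its A at the 6th base kept, nearest to the 3′ end. Replicates of a group differed by more than counting error (chi-square per degree of freedom 19.2 to 76.4). Library totals were 1612685, 1983661 and 2516774 reads in WT and 1845258, 2671271 and 2269285 in prp2-1.

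All 11 introns are named. From the list of other secretory genes the largest, middle and smallest changes and those that did not pass are named, and OST5 was added after its values were seen. The genes and lists were chosen with earlier results of these data known.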

Additional observations from a re-analysis of the deposited data

Results flagged for a closer look

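The spliced count of SAR1 reached 835 in a draw of 800000 reads from WT replicate A, whereas the whole library lists 15. It is singled out because a draw cannot hold more reads of a class than the library it comes from if both are counted in the same way. The remaining draws of that library at this depth held 2, 3, 6 and 650. Of 274 tested introns, 15 had at least 1 draw above the full spliced count and 22 had at least 1 above the full unspliced count. SAR1 is the 1 member of the former among the 11 introns, and YIP3 of the other secretory genes had 3 such draws of 90. The cause was not tested.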

How the results depend on the processing

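The ratio rose in all 11 introns, each past the threshold, with DESeq2, limma, both other filters, the first and last draws, the replicate block and without each library. The same letter does not pair libraries by the labels. Deviations of same-letter libraries in the log2 ratio correlated by 0.0924, 0.205 and 0.272 for A, B and C. Those of different letters correlated by -0.286 to 0.0834. For the log2 CPM of total reads the same-letter values were 0.263, -0.0869 and 0.00673, and those of different letters were -0.295 to 0.254. With the replicate block the 11 introns stayed called higher in the ratio, and 6 were called lower in total reads and 10 in spliced reads. For the drop of total reads the counts were 5 of 11 introns, 9 with scaling to introns over 98% unspliced in WT, and 3 to 9 without each library. The rise of total reads in 1 intron, SAR1, became 0 without SAR1 and 0 in the last draw, where its change was -1.245. Over all tested introns, total reads were called higher in 54, in 27 with that scaling and in 33 to 50 without each library. They were called lower in 46 to 77 without each library. Spliced reads were called higher in 17, in 2 with that scaling and in 7 to 17 without each library. Unspliced reads were called lower in 6, and in 3 in the last draw. The YOS1 difference was 1.04 to 1.71 without each library. The cause of these shifts was not tested. The drawn counts moved the unspliced percent by more than the SD of the full counts in 9 cases of intron, group and depth, and 57 stayed within it. In WT, SAR1 moved to 71.5% and 42.0% at 400000 and 800000 reads, and BOS1 to 8.45% at 400000. SEC17 in WT moved to 3.28% at 400000 reads and to 1.91% at 200000, where few unspliced reads were left. In prp2-1, SAR1 moved to 99.6%, 99.2% and 97.7% at 200000, 400000 and 800000 reads, and SEC17 to 94.3% at 800000.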

Other observations

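The gain of unspliced reads and the loss of spliced reads were unequal across these genes, in CPM, a comparison chosen after the values were seen. In BOS1 unspliced reads went from 30.4 ± 8.81 to 326 ± 98.6 and spliced reads from 237 ± 11.9 to 12.6 ± 3.49. The mean gain of 295 thus exceeded the mean loss of 224. Total BOS1 reads were 286, 270 and 246 in WT and 279, 285 and 451 in prp2-1, so the excess lay mostly in replicate C. The change of total BOS1 reads did not pass (log2 change 0.38, adjusted p = 0.180, edgeR). In ERD2 unspliced reads went from 157 ± 18.1 to 1081 ± 313 and spliced reads from 5237 ± 306 to 822 ± 91.0, a gain of 924 against a loss of 4415, or 20.9%. In SEC14, the gain was 38.8 against a loss of 145 (26.7%), and in BET1 411 against 574 (71.7%). For the other 6 introns, leaving out SAR1, the gain ranged from 43.1% (SEC27) to 67.7% (YOS1 intron 1) of the loss. Total reads did not pass in BET1, SEC27, SFT1 and YOS1 intron 1 either (adjusted p = 0.227, 0.0563, 0.0804 and 0.0896, edgeR). Whether unspliced and spliced RNA are primed equally well was not tested.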
